A study of Mus musculus with 12 samples.

Results

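The genes described here encode the proteins of the cytosolic ribosome in livers of mice with and without hepatocyte Yap1, a transcriptional coactivator of the Hippo pathway, before and after the mitogen TCPOBOP. They were chosen by symbol on an Affymetrix mouse expression array: every probe set annotated to a single gene called Rpl or Rps with a number, or Rplp0, Rplp1, Rplp2 or Rpsa, leaving out the Rps6k kinases and names of pseudogenes, with the brightest probe set standing for its gene. The rule found 46 genes among 18193 with a probe set of their own. After a filter on dim probe sets, which asked that a probe set exceed the median of an array in 2 or more of 12 cases, 41 of them remained among 14102 genes, 21 of the large and 20 of the small ribosomal subunit. The 5 that did not pass were Rpl3l, Rpl14, Rpl39l, Rps4l and Rps16.

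All animals were female mice, 8 to 12 weeks old, with both Yap1 alleles floxed. KO mice received the vector AAV8.TBG.PI.Cre.rBG, in which the hepatocyte-restricted TBG promoter drives Cre, and WT mice received AAV8.TBG.PI.eGFP.WPRE.bGH8 from the same kind of vector, so WT livers also carried virus and unrecombined floxed alleles. TCPOBOP, which activates the receptor CAR and makes hepatocytes divide, was given once by gavage in corn oil at 3 mg/kg, 10 days after the virus. Livers were taken at day 0 (2 KO and 2 WT arrays), day 1 (1 KO and 1 WT array, each of pooled RNA) and day 2 (3 KO and 3 WT arrays). Day 0 animals received no corn oil, and no later group without the drug is used here, so the drug, the gavage and the passing of time cannot be told apart. Cells of the liver other than hepatocytes keep Yap1. The labels do not say that arrays of a group came from separate animals, so p-values measure the spread between these arrays. In whole liver, fewer cells of a type and less RNA per cell cannot be told apart.

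Each ribosome holds a single copy of nearly every ribosomal protein, so cells that enlarge and divide must make the whole set together, and the genes are among the most abundantly transcribed of all. Their messages typically start with a short run of pyrimidines, the terminal oligopyrimidine or TOP motif, through which the kinase mTOR and the RNA-binding protein Larp1 control how well they are translated. Many of the promoters are compact, and surplus ribosomal proteins are degraded rather than stored. In liver, ribosome production is known to be stepped up before hepatocytes enter the cell cycle.

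The annotated starts of 6 of the genes are given because the TOP motif is what the family's messages are best known for, and because the 6 include genes with a long run of pyrimidines near the annotated start that changed much and little in WT livers, and genes with short runs. Each line holds 10 bases before and 20 bases from the transcription start annotated in RefSeq on build GRCm38.p6, written in the direction of transcription, with the longest unbroken run of C and T in that window in capitals. A run anywhere in the window was counted, and the message need not begin with it.
Rpl13a (chr7:45128726-45128755, minus strand): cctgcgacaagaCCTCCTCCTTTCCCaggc
Rplp2 (chr7:141447641-141447670, plus strand): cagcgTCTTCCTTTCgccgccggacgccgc
Rpl38 (chr11:114668570-114668599, plus strand): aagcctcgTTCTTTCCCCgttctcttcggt
Rps10 (chr17:27635225-27635254, minus strand): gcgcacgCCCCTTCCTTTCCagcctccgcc
Rpl41 (chr10:128549149-128549178, minus strand): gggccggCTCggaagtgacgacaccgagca
Rps28 (chr17:33824543-33824572, minus strand): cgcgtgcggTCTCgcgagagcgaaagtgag
Rpl13a, Rplp2, Rpl38 and Rps10 had runs of 14, 10, 10 and 13 pyrimidines. Rpl41 and Rps28 had no run of more than 3 and 4 pyrimidines there. Of the 41 genes, 36 were in the table of start regions, and 15 of these 36 (41.7%) had a run of at least 8 pyrimidines inside the window at an annotated start, against 13.01% of 27025 genes in the table.

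Values are MAS5 signals, the array software's brightness estimates, which the depositors scaled so that every array has a trimmed mean of 500. Differences are given on the log2(signal + 16) scale, as deposited and again after quantile normalization, which forces all arrays to one distribution of signals. Both were tested with limma across all 14102 genes and adjusted by Benjamini-Hochberg, and a gene is said to have risen or fallen at an adjusted p under 0.05. Yap1 itself read 571.5, 539.0 and 796.7 in KO livers at day 2, against 1239.9, 1059.6 and 1306 in WT livers at day 2. At day 0 it read 631.5 and 595.7 in KO livers, against 1234 and 1293 in WT livers. The KO arrays lay below the WT arrays on both days, by -0.92 ± 0.17 at day 2 (SE, n = 3 each, adjusted p = 0.00844). At day 0 the difference in Yap1 was -1.02 ± 0.20 (n = 2 each, limma adjusted p = 0.0914), which missed the threshold. It also missed it after quantile normalization (adjusted p = 0.102). The range of signals differed between arrays. The highest signal on an array was 48217 to 67457 in KO livers at day 2, against 103216 to 116918 in WT livers at day 2, and the spiked control cre (3' probe set) read 19631 to 24799.7 in KO livers, against 50685 to 53999 in WT livers. Ratios of 3' to 5' probe sets lay between 1.53 and 2.11 for Actb and between 0.73 and 0.92 for Gapdh over all 12 arrays.

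Ribosomal protein genes were among the brightest features of the arrays. Of the 41 genes, 35 had a mean log2 signal of 12 or more, where 768 other genes lay, and the highest means belonged to Rps2, a protein near the messenger entry channel, Rps29 and Rpl38. The other 6 genes (Rpl27a, Rps25, Rps6, Rpl12, Rpl39 and Rps27) were represented by dim probe sets. The median log2 signal of the 41 genes was 13.40 and 13.11 in KO livers at day 0, 13.68 in the day 1 pool of KO livers, and 13.21, 13.27 and 13.24 in KO livers on day 2. In WT livers its values were 13.004 and 13.08 on day 0 arrays, 13.64 in the day 1 pool, and 13.76, 13.86 and 13.77 on day 2 arrays. Thus, as deposited, both pools at day 1 and all WT arrays at day 2 were high, and all KO arrays at day 2 lay within the range of KO livers at day 0. After quantile normalization the KO arrays had medians of 13.41, 13.47 and 13.36 at day 2, against 13.299 and 13.19 at day 0, so that all 3 lay above both. The WT arrays on that scale had 13.62, 13.77 and 13.59 at day 2, against 13.095 and 13.21 at day 0. Shares were taken of the summed signal of the 14102 genes that passed the filter, each by its brightest kept probe set. The 41 genes took 1.92%, 2.03% and 2.07% in KO livers at day 2, against 2.58%, 2.82% and 2.52% in WT livers at day 2. At day 0 their share was 1.96% and 1.77% in KO livers, against 1.64% and 1.75% in WT livers.

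**Figure D1:**
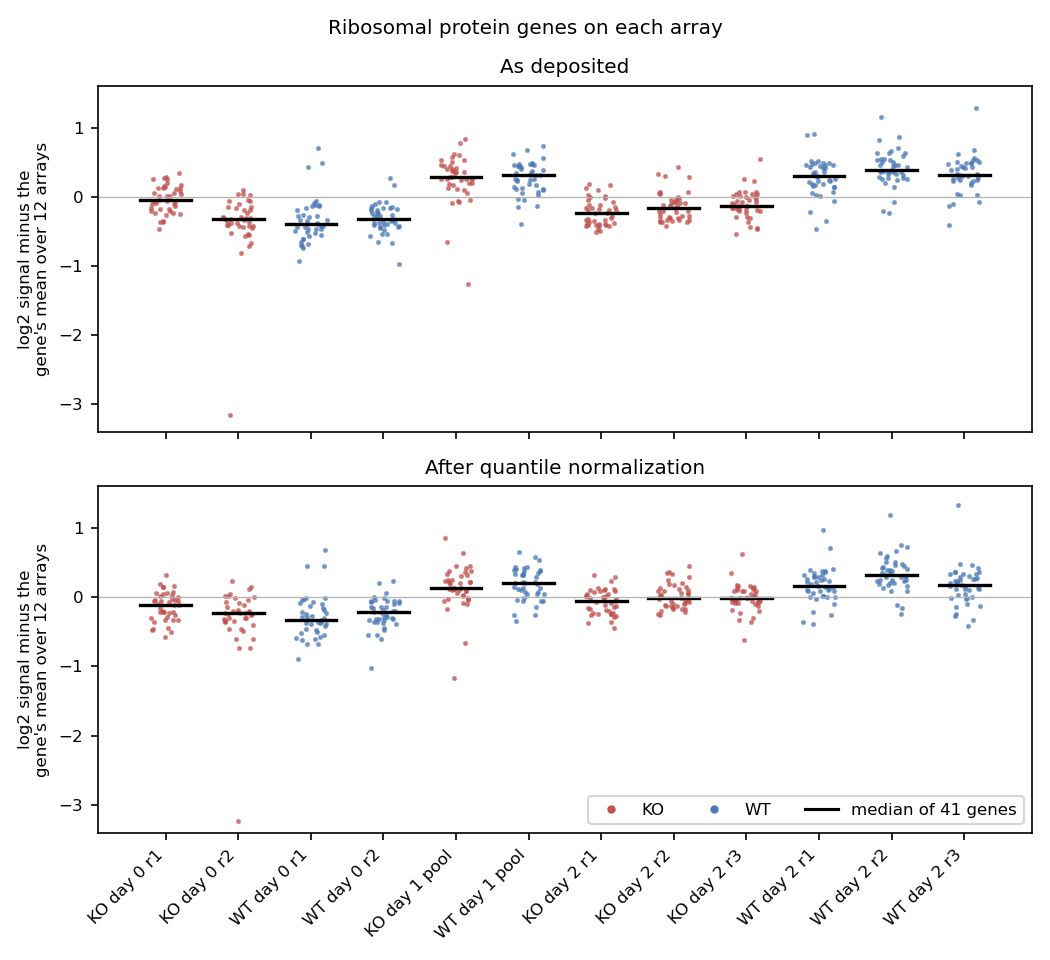
Each point is 1 of the 41 ribosomal protein genes on 1 array (r1 to r3, arrays of a group), as the log2(signal + 16) minus that gene's mean over the 12 arrays, as deposited (top) and after quantile normalization (bottom); black lines are medians. The medians of the 3 WT arrays at day 2 lie above those of the 3 KO arrays at day 2 on both scales.

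In WT livers, 29 of the 41 ribosomal protein genes rose between day 0 and day 2 and none fell, with a median difference of 0.71. Over all genes tested, 12.6% were called (7.26% higher) and the median was -0.11. After quantile normalization 21 rose and none fell, with a median of 0.53, where 12.7% of all genes were called (6.75% higher). In 37 of the 41 genes every WT array at day 2 lay above both WT arrays at day 0, a pattern that 19.2% of all genes showed. Other features moved over the same arrays. Of 768 other genes with a mean log2 signal of 12 or more, 27.1% rose in WT livers as deposited and 19.7% after quantile normalization, where 29 and 20 of the 35 bright ribosomal protein genes rose. Of 5 measured hepatocyte markers, 3 rose as deposited and none did after quantile normalization, when 1 fell. As deposited 2 of 6 measured stellate markers and 2 of 7 sinusoidal endothelial markers fell, as did 758 of all 14102 genes. After quantile normalization 2 and 1 of them fell, as did 838 of all genes. The part of these shifts in the ribosomal protein values was not tested. The 4 ribosomal protein genes whose arrays overlapped were Rps10 and the dim Rpl39, Rps25 and Rps27. The members' changes were spread by 0.35 (SD over 41 genes), with quartiles of 0.56 and 0.85, while the median SE of a single gene was 0.14.

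The largest rises were in the large subunit. Rpl41, a very small basic protein, read 31682, 31164 and 23762 in WT livers at day 2, against 12609 and 10904 at day 0. The groups were well apart, and the rise was 1.29 ± 0.14 or 2.44-fold (SE, n = 3 and 2, adjusted p = 0.000143). The stalk that recruits elongation factors to the ribosome is built from Rplp0, Rplp1 and Rplp2. Rplp0 read 17529, 19754 and 18046 in WT livers at day 2, against 7632 and 8013 at day 0, a rise of 1.23 ± 0.12 (adjusted p = 4.77e-05). Rplp2 read 10204, 12649 and 9638 at day 2, against 4685 and 5234 at day 0, a rise of 1.12 ± 0.14 (adjusted p = 0.000292). Neither stalk gene had overlapping groups, and both rose on the quantile scale too, by 1.02 and 0.95. Rpl19 rose by 1.05 ± 0.14 and Rpl13a, which in human monocytes also leaves the ribosome to silence inflammatory messages, rose by 1.03 ± 0.13. Rpl35, Rpl6 and Rpl27 followed with 1.01, 0.98 and 0.90. Rpl11, which together with Rpl5 binds and inhibits the p53 ligase Mdm2, rose by 0.70 ± 0.14 as deposited (adjusted p = 0.0078) and missed the threshold after quantile normalization (0.55, adjusted p = 0.0509). Rpl12 did the reverse, at 0.63 as deposited (adjusted p = 0.0668) and 0.71 after it (adjusted p = 0.0479). In all, 16 of 21 large subunit genes rose (median 0.79), and 13 did on the quantile scale.

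In the small subunit 13 of 20 genes rose (median 0.63), and 8 did on the quantile scale. Rps19, needed to mature the small subunit and mutated in Diamond-Blackfan anaemia, read 5698, 6707 and 5948 in WT livers at day 2, against 2888 and 3004 at day 0. It was 2.07-fold higher at day 2, a log2 difference of 1.05 ± 0.12 (adjusted p = 0.000155). Rps29, a zinc-binding protein of the subunit's head, read 33449, 30600.1 and 28470.2 at day 2, against 14523 and 16431 at day 0, a rise of 0.99 ± 0.12 with no overlap. Rps27l, a p53-responsive paralog of Rps27, rose by 0.79 ± 0.11, and Rpsa, also known as the laminin receptor, rose by 0.68 ± 0.18. After quantile normalization Rps27l kept its call and Rpsa had an adjusted p of 0.0621. Several well-known small subunit genes gave no call. Rps3 differed by 0.30 ± 0.15, Rps14, whose loss drives a human myelodysplastic syndrome, by 0.31 ± 0.16, and Rps2 by 0.32 ± 0.14. Rps6, the substrate of S6 kinase, differed by 0.78 ± 0.32, with the wide error of its dim probe set. Rps10, which is ubiquitinated on collided ribosomes, read 15142, 19132 and 14674 in WT livers at day 2, against 13132 and 15077 at day 0, and these groups overlapped. Of the 29 genes that rose, 14 kept the call whichever 1 array of the groups compared was left out: Rpl13a, Rpl19, Rpl27, Rpl37a, Rpl38, Rpl41, Rplp0, Rplp2, Rps19, Rps26, Rps27l, Rps28, Rps29 and Rps4x. Without replicate 1 of WT day 0 the count was 15, and without any other single array it was 21 to 24.

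In KO livers no ribosomal protein gene rose or fell between day 0 and day 2 as deposited. The limma fit gave 6 of 41 at an unadjusted p under 0.05, which 22.6% of all genes had, and the median difference was 0.02 over the 41 genes, against 0.05 over all genes, of which 8.69% were called at the adjusted threshold. After quantile normalization 4 rose and none fell (median 0.13), where 9.28% of all genes were called (4.74% higher). These 4 were Rpl37, Rpl38, Rplp0 and Rps29. Rplp0 read 11341, 11677 and 13123 in KO livers at day 2, against 9851 and 8782 at day 0. All 3 later arrays lay above both earlier ones, by 0.37 ± 0.12 as deposited (adjusted p = 0.0788) and by 0.55 after quantile normalization (adjusted p = 0.00577). Rps29 read 20834, 23370.0 and 24102 at day 2, against 20150.4 and 19465 at day 0, also without overlap, by 0.20 ± 0.12 as deposited (adjusted p = 0.364) and 0.48 after (adjusted p = 0.0233). Rpl38, whose loss in mice alters the axial skeleton, differed by 0.22 and 0.49, and Rpl37 by 0.28 and 0.41. Among the 768 other genes with a mean log2 signal of 12 or more the median was -0.23 as deposited and -0.02 after quantile normalization. Of them 28.1% fell and 12.4% rose as deposited, and 21.5% and 20.4% after it. The 35 bright ribosomal protein genes had medians of -0.05 and 0.13. Of 5 measured hepatocyte markers, 4 fell as deposited and none did after quantile normalization. The part of these shifts in the ribosomal protein values was not tested.

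The other large positive values in KO livers, as deposited, were those of Rpl27a (1.73 ± 0.65), Rpl39 (0.62 ± 0.19) and Rpl35 (0.42 ± 0.24). Rpl27a rested on 1 low array: it read 392.9, 360.2 and 415.0 in KO livers at day 2, against 350.4 and 24.6 at day 0. The most negative values were those of Rps3 (-0.36 ± 0.15), Rps2 (-0.34 ± 0.14), Rpsa (-0.32 ± 0.18), Rps14 (-0.31 ± 0.16) and Rpl19 (-0.24 ± 0.14), none past the threshold. Rps19 read 2902, 3183 and 3017 in KO livers at day 2, against 3624 and 3314 at day 0, and all 3 later arrays were below both earlier ones (adjusted p = 0.378). The median SE of a gene was 0.14, so a difference of the size seen in WT livers was several times the error. The calls depended on single arrays, in direction too. Without replicate 2 of KO day 0, 6 genes fell and none rose. Without replicate 1 of KO day 0 or replicate 1 of KO day 2, 1 gene rose and none fell, and without each other day 2 array there was no call.

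**Figure D2:**
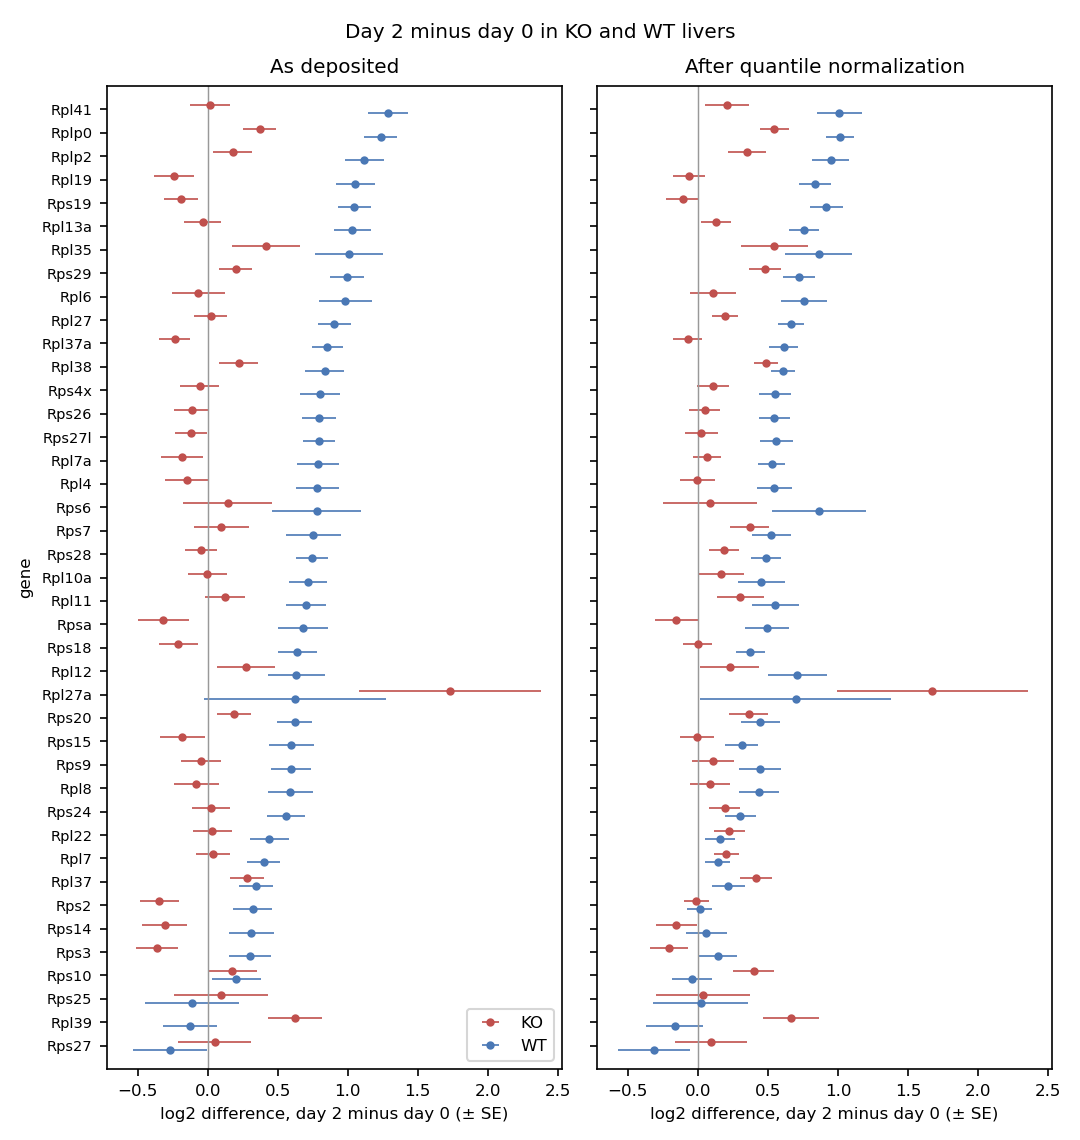
Log2 difference between day 2 and day 0 for each of the 41 genes in KO (red, upper point) and WT livers (blue, lower point), with SE, as deposited (left) and after quantile normalization (right), ordered by the WT value as deposited. WT values reach 1.29 as deposited while most KO values lie near 0, and the 2 sets move closer on the right.

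At day 2 the ribosomal protein genes were lower in KO than in WT livers: 23 of 41 fell and none rose, with a median difference of -0.51. Over all genes 9.22% were called (5.23% lower) and the median was 0.09. In 34 of the 41 genes every KO array lay below every WT array, which 16.1% of all genes showed. After quantile normalization 11 fell and none rose (median -0.25), where 7.37% of all genes were called (3.86% lower). The 11 were Rpl13a, Rpl19, Rpl27, Rpl37a, Rpl41, Rpl7a, Rplp2, Rps15, Rps19, Rps26 and Rpsa, all of them called as deposited too. This comparison and the ones within genotypes share their day 2 arrays.

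Among large subunit genes, 12 of 21 fell. Rpl41 read 14509, 13846 and 12359 in KO livers at day 2, against 31682, 31164 and 23762 in WT livers, with no overlap. The difference was -1.08 ± 0.13, or 0.473 times the WT signal (SE, n = 3 each, adjusted p = 0.00181), and -0.74 after quantile normalization. Rpl19 read 8380.2, 9111 and 8586 in KO livers, against 15757, 16154 and 17527 in WT livers, a difference of -0.92 ± 0.13 (adjusted p = 0.00282). The lowest WT array was far above the highest KO array. Rpl37a, a zinc-finger protein, read 9434, 9986 and 10208 in KO livers, against 17735, 17329 and 15809 in WT livers (-0.78 ± 0.10, adjusted p = 0.00187). Rplp2 read 6276, 6170.1 and 6768 in KO livers, against 10204, 12649 and 9638 in WT livers (-0.75 ± 0.12). Rplp0 fell by 0.61 ± 0.11 as deposited (adjusted p = 0.00686) and differed by -0.32 after quantile normalization, at an adjusted p of 0.0539. Rpl7a, Rpl6 and Rpl13a fell by 0.81, 0.82 and 0.78. Rpl11 differed by -0.31 ± 0.13 (adjusted p = 0.138).

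Among small subunit genes, 11 of 20 fell. Rps19 read 2902, 3183 and 3017 in KO livers at day 2, against 5698, 6707 and 5948 in WT livers. It was at 0.498 times the WT signal, a difference of -1.01 ± 0.11 (adjusted p = 0.00102) that was -0.82 after quantile normalization (adjusted p = 0.00391). Rpsa read 5479.6, 5792 and 6394 in KO livers, against 9904, 11709.6 and 10205 in WT livers (-0.85 ± 0.16, adjusted p = 0.0106). Rps26, which sits where the messenger leaves the subunit, read 8259.5, 8596 and 9675 in KO livers, against 15067, 15981 and 14460.4 in WT livers (-0.78 ± 0.11). In each of these 3 genes the 2 genotypes were separate. Rps7 fell by 0.77 ± 0.18, and Rps27l by 0.39 ± 0.10, with -0.08 after quantile normalization (adjusted p = 0.673). Rps10 read 15809.9, 16579 and 18599.6 in KO livers, against 15142, 19132 and 14674 in WT livers, with overlapping arrays and a difference of 0.07 ± 0.16. Rps20 also overlapped, at -0.03 ± 0.11. Both values are those of the brightest probe set. In a limma fit on probe sets, 3 other bright sets of Rps10 fell by 0.89, 0.63 and 0.70 (adjusted p = 0.00434, 0.0114 and 0.0136), and a second bright set of Rps20 fell by 0.44 (adjusted p = 0.0411). After quantile normalization 1 of these 4 sets kept its call, a set of Rps10 at -0.60 (adjusted p = 0.0166). In the same limma fit other bright sets of Rps27l gave no call, at -0.155 and -0.023 (adjusted p = 0.376 and 0.916). After quantile normalization they read 0.142 and 0.259. The other kept set of Rps7 differed by -0.035 (adjusted p = 0.926). Rps3, Rps14 and Rps6 differed by -0.46, -0.38 and -0.37 without passing the threshold. Of the 23 genes, 11 kept the call without any 1 of the 6 arrays: Rpl13a, Rpl19, Rpl27, Rpl37a, Rpl41, Rpl7a, Rplp0, Rplp2, Rps19, Rps26 and Rpsa. The count was 12 without replicate 2 and 14 without replicate 1 of KO day 2, 15 without replicate 3 of WT day 2, and 16 to 19 without each other array.

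Brightness moved with this comparison. Among the 768 other genes with a mean log2 signal of 12 or more the median difference between KO and WT livers at day 2 was -0.23 as deposited and 0.05 after quantile normalization. Of these 768 genes 22.1% fell as deposited and 5.5% after quantile normalization. The 35 bright ribosomal protein genes had medians of -0.53 and -0.25, and 23 and 11 of them fell. The hepatocyte markers Alb, Apoa1, Ttr, Hnf4a and Serpina1c, all 5 measured of 6 listed, moved the same way as deposited: their summed signal was 181581 to 232293 in KO livers at day 2, against 372314 to 423317 in WT livers. Of these, 4 fell as deposited, and on the quantile scale none fell and Ttr rose. On that scale 3 of the 5 still lay below WT livers without overlap and 1 above, with a median of -0.136. Of all 14102 genes, 2208 lay below and 2446 above in that way. At day 0 the summed signal of the 5 markers was 313697 to 371240.3 in KO livers, against 267781 to 272922 in WT livers. Sums of the 7 sinusoidal endothelial markers were 6706 to 7747 in KO livers at day 2, against 4924 to 6065 in WT livers, and of the 6 measured stellate markers 8268 to 9007 in KO livers, against 7608 to 8127 in WT livers. Those of the 7 Kupffer cell and macrophage markers were 6045 to 9589 in KO livers, against 9199.9 to 9611 in WT livers. Those of the 7 measured lymphocyte markers were 2904 to 3502 in KO livers, against 2104 to 2842 in WT livers. Of the 7 macrophage markers, 2 fell as deposited and 1 after quantile normalization, beside 5.23% and 3.86% of all genes. As deposited 4 of these 7 had positive differences, and their median was 0.14. The cholangiocyte markers Krt19 and Krt7, the neutrophil marker S100a9 and the erythroid marker Slc4a1 did not pass the filter. Sums of the kept markers of these 3 lists overlapped between genotypes except for the 2 erythroid ones (507 to 622 in KO livers, against 654 to 760.5 in WT livers). As deposited these 2 differed in opposite directions, by -1.24 and 0.84, each without overlap and without a call. Of 3 kept neutrophil markers, 1 was higher in KO livers without overlap, as were 2830 of all 14102 genes. The part of array range and cell makeup in the ribosomal protein values was not tested.

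**Figure D3:**
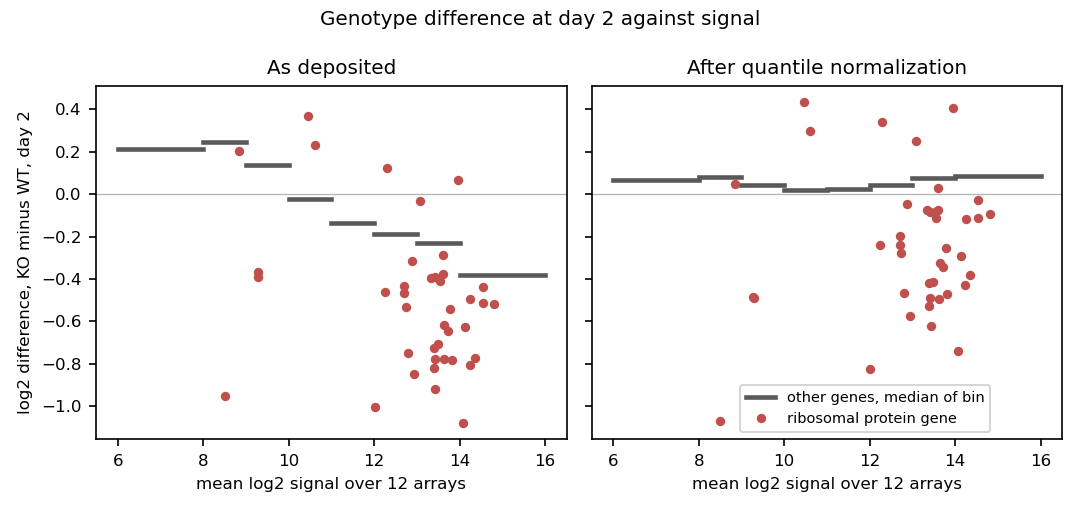
Mean log2 signal over 12 arrays (x) against the log2 difference between KO and WT livers at day 2 (y) for the 41 ribosomal protein genes (red), as deposited (left) and after quantile normalization (right); grey bars are medians of all other genes in bins of signal. As deposited the bars decline with signal; after quantile normalization they lie near 0 while most red points stay below them.

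The change between day 0 and day 2 was smaller in KO than in WT livers in 16 of the 41 genes and larger in none, by the interaction term of the fit. The median difference of changes was -0.67, against 0.11 over all genes, of which 3.15% were called (2.06% lower). Among the 768 other genes with a mean log2 signal of 12 or more the median was -0.29 as deposited and 0.11 after quantile normalization. Of them 11.1% were called lower as deposited and 1.6% after it. The 35 bright ribosomal protein genes had medians of -0.79 and -0.35, with 16 and 3 called lower. After quantile normalization 3 genes passed, Rpl19, Rpl37a and Rps19, with a median of -0.34 over the 41 and 2.04% of all genes called (1.13% lower). The same 3 were the ones called without any 1 of the 10 arrays. Rpl19 read 11983 and 8809 in KO livers at day 0 and 7423 and 8441 in WT livers at day 0, so that the day 2 values given above were -0.24 ± 0.14 from day 0 in KO livers, against 1.05 ± 0.14 in WT livers. The difference of changes was -1.30 ± 0.20 (adjusted p = 0.0111), and -0.90 after quantile normalization (adjusted p = 0.0276). For Rps19 it was -1.24 ± 0.17 (adjusted p = 0.0069) and -1.03 (adjusted p = 0.0213). For Rpl37a it was -1.09 ± 0.15 (adjusted p = 0.00769) and -0.69 (adjusted p = 0.0431). Rpl41, Rpl13a, Rpl7a, Rplp2, Rpl4, Rps27l and Rps26 had values between -1.27 and -0.91 as deposited, and after quantile normalization their adjusted p lay between 0.0569 and 0.12. Rpl6 and Rpsa, at -1.05 and -0.997, came close to the threshold (adjusted p = 0.0556 and 0.057). Rps10 and Rpl37, at -0.03 and -0.06, had the smallest values of the bright genes on their chosen probe sets, while 3 other bright sets of Rps10 had -1.05, -0.86 and -1.03 in the fit on probe sets (adjusted p = 0.0288, 0.0401 and 0.0352), without a call after quantile normalization. The count of 16 was 4, 6 and 10 without replicate 2, 1 or 3 of KO day 2. It was 9 without replicate 1 of WT day 2 and 11 without replicate 2 or 3 of WT day 2. Leaving out a day 0 array left 1 array in its group. Fewer genes passed without either WT day 0 array, and more without replicate 2 of KO day 0. The median of the 41 genes was -0.706 and -0.768 without replicate 1 or 2 of WT day 0. Without replicate 1 or 2 of KO day 0 it was -0.641 and -0.897.

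**Figure D4:**
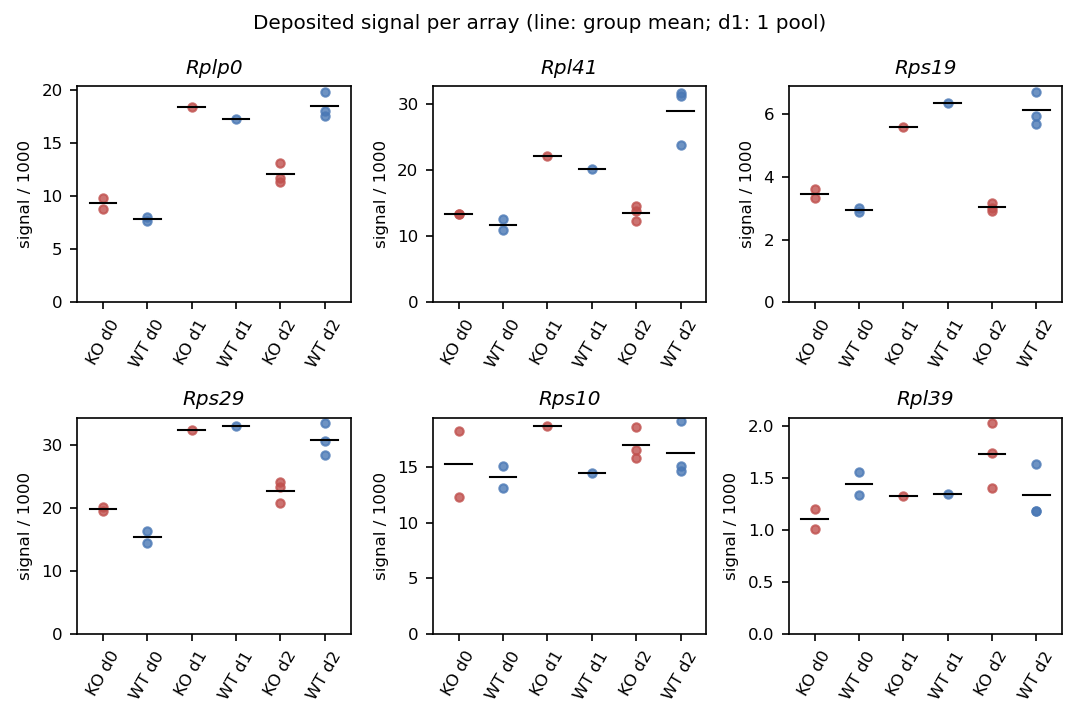
Deposited signal divided by 1000, on axes that start at 0, for 6 ribosomal protein genes on each of the 12 arrays, with KO groups (red) left of WT groups (blue) at day 0, day 1 and day 2 and lines at group means. Rplp0, Rpl41, Rps19 and Rps29 are high in both day 1 pools and, at day 2, higher in WT than in KO livers; Rps10 and the dim Rpl39 overlap between genotypes at day 2.

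Before TCPOBOP no ribosomal protein gene differed between KO and WT livers by the adjusted limma test, on either scale. Of all genes 0.170% and 0.163% were called as deposited and after quantile normalization. At an unadjusted p under 0.05 there were 8 of 41 as deposited, where 8.16% of all genes passed, and 4 after quantile normalization, where 8.60% did. The median difference was 0.19 as deposited and 0.09 after quantile normalization, with 35 and 31 of the 41 genes higher in KO livers. Of all 14102 genes, 6553 and 6590 were higher in KO livers. Among the 768 other genes with a mean log2 signal of 12 or more the medians were 0.07 and -0.03. The median of the 41 genes as deposited leaned on single arrays. It was 0.013 without replicate 1 of KO day 0 and 0.328 without replicate 2. The largest values were those of Rps27l (0.52 ± 0.12, adjusted p = 0.2), Rps20 (0.40 ± 0.14), Rpl4 (0.39 ± 0.17), Rpl19 (0.38 ± 0.15) and Rps29 (0.36 ± 0.13). Rps27l read 10523 and 11741 in KO livers at day 0, against 7609.8 and 7863 in WT livers, without overlap. The most negative were those of Rpl27a (-2.06 ± 0.71), Rpl39 (-0.38 ± 0.21), Rps7 (-0.12 ± 0.22), Rps27 (-0.09 ± 0.29) and Rpl12 (-0.03 ± 0.23), 4 of them on dim probe sets. With 2 arrays a group, this comparison leans on the spread estimated over all groups.

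The day 1 arrays were single pools, so their values have no error and no test. Most ribosomal protein genes were high in both. In the KO pool 32 of 41 lay above both KO arrays at day 0, where 31.1% of all genes did, with a median difference of 0.46. In the WT pool 35 of 41 lay above both WT arrays at day 0, where 33.8% of all genes did, with a median of 0.64. The KO pool stood at 18359 for Rplp0, 22129 for Rpl41 and 5578 for Rps19. The WT pool stood at 17281, 20197 and 6342 for the same genes. Over the 41 genes the median difference between the KO and the WT pool was -0.02, with 19 genes higher in the KO pool. The pools stood differently to day 2. In KO livers 36 of 41 genes read higher in the day 1 pool than on all 3 arrays of day 2, where 29.4% of all genes did, and after quantile normalization 28 did, where 30.6% of all genes did. In WT livers 10 genes were above and 18 below all 3 arrays of day 2, as were 28.6% and 29.1% of all genes. The largest differences between the pool at day 1 and the mean of day 0 were those of Rps6 (1.09) and Rpl11 (1.04) in KO livers and of Rpl35 (1.34) and Rpl11 (1.20) in WT livers.

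Several genes had more than 1 probe set, and many ribosomal protein genes have pseudogene copies whose transcripts a probe set may also bind. Of the 41 chosen probe sets, 12 carry the suffix _x_at and 2 the suffix _s_at, by which the manufacturer marks probes shared between transcripts. For 19 genes with several kept probe sets, the sign of the WT change between day 0 and day 2 was the same in all sets of 14, and differed for Rpl22, Rpl35, Rps10, Rps20 and Rps3. Rps10's brightest set gave 0.20, but 3 of its other sets, all with a mean log2 signal over 12, rose by 0.80, 0.80 and 0.94, so its lack of a call is that of 1 probe set. A dim second set of Rps20 fell by 1.47 (adjusted p = 0.0269), while its chosen set and a further bright one rose by 0.62 and 0.83. A second set of Rps3 fell by 0.57 (adjusted p = 0.0334), with 0.30 in the chosen one. These p-values are from a limma fit on probe sets. Over the same 19 genes, the sign of the difference between KO and WT livers at day 2 agreed in all sets of 12. It differed for Rpl27, Rpl35, Rps10, Rps20, Rps24, Rps3 and Rps9. For the difference of changes the sign agreed in 12 genes, and Rpl37a was among those that differed. For the KO change between day 0 and day 2 it agreed in 8.

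The dim members are each also covered by brighter probe sets that the annotation gives to the gene together with pseudogenes or relatives, and these were fitted with all 23682 annotated probe sets, of which limma called 11.8% in WT livers. Rpl39, which lines the exit tunnel, had -0.12 in WT livers on its own dim set, and the set shared with Gm32211 rose by 0.82. Rps25 had -0.11 on its own set, and the set shared with Gm6988 and Gm4963 rose by 0.79. For Rpl12 both brighter shared sets rose, by 1.29 and 1.08, and for Rpl27a the shared set rose by 0.70. For Rps27 the set shared with Rps27rt read 0.49, without a call. Rps6 had 8 shared sets, of which 2 rose (0.86 and 0.41). The shared sets also reached genes that have no kept set of their own. Rplp1, the third stalk protein, rose by 0.92 in WT livers (adjusted p = 0.00153) and fell by 0.69 in KO against WT livers at day 2 (adjusted p = 0.00995). Rpl5 and Rpl23, partners of Rpl11 in binding Mdm2, rose by 0.53 and 0.73 on their brightest sets, and Rpl3 and Rps16 rose by 0.61 and 0.66. Of 98 such sets, 70 rose in WT livers and none fell, and 60 fell and none rose in KO against WT livers at day 2, where 8.49% of all probe sets were called. In KO livers none rose and 1 fell between day 0 and day 2, where 7.24% were called. After quantile normalization 61 rose in WT livers and 25 fell in KO against WT livers at day 2, where 11.8% and 6.63% of all probe sets were called. On that scale 3 of the 98 sets rose and none fell in KO livers between day 0 and day 2. In the fit on genes 9.28% were called there. The median of the 98 sets in KO livers was 0.126, against 0.002 as deposited. One such set cannot be assigned to one gene, and sets of the same gene are not independent.

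Paralogs outside the naming rule behaved as follows. Rpl22l1, a paralog of Rpl22, read 5047, 5003 and 5455 in KO livers at day 2, against 3395 and 3382 at day 0, a rise of 0.61 ± 0.11 (adjusted p = 0.00589). In WT livers it read 7188, 7945 and 7109.7 at day 2, against 2463 and 2652 at day 0, a rise of 1.53 ± 0.11 (adjusted p = 7.3e-06). The rise in KO livers was smaller by the interaction term (-0.92 ± 0.16, adjusted p = 0.0171), and missed the threshold after quantile normalization (adjusted p = 0.0553). Rpl7l1, a relative of Rpl7, differed by 0.06 in KO and 0.45 in WT livers, without a call in either. Fau, the precursor of a small subunit protein, differed by -0.04 ± 0.18 in KO and 0.39 ± 0.18 in WT livers.

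Other genes of the translation machinery were read from lists chosen with earlier results of these data known. Of 15 measured elongation factors and other TOP messages, 4 fell and none rose in KO livers between day 0 and day 2, where 4.49% of all genes fell. After quantile normalization 1 fell, where 4.55% of all genes did. In WT livers 6 rose and none fell, and 4 rose after quantile normalization, beside the 7.26% and 6.75% of all genes given above. At day 2, 10 of the 15 were lower in KO than in WT livers, and 3 were so after quantile normalization, beside 5.23% and 3.86% of all genes. Eef1a1, which delivers aminoacyl-tRNA to the ribosome, read 40902, 41964 and 50545 in KO livers at day 2, against 70303, 70205 and 77278 in WT livers. The difference was -0.71 ± 0.11 (adjusted p = 0.00531) as deposited and 0.04 after quantile normalization, so its direction rests on the scale. Eef1d, part of the exchange factor of Eef1a1, and Pabpc1, the poly(A)-binding protein, fell by 0.95 and 0.93 in this comparison and were called on both scales.

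Of 21 measured ribosome biogenesis genes, 1 rose and none fell in KO livers, where 4.20% of all genes rose. In WT livers 6 rose and none fell on either scale, where 7.26% of all genes rose as deposited. In KO against WT livers at day 2, 4 fell and none rose, and 5 fell after quantile normalization, beside 5.23% and 3.86% of all genes. Nhp2, of the particles that pseudouridylate ribosomal RNA, rose by 0.67 ± 0.17 in KO and by 1.52 ± 0.17 in WT livers. Ncl, Fbl and Nop56, nucleolar proteins that process ribosomal RNA, differed by -0.00, 0.07 and 0.12 in KO livers, without a call, and rose by 0.96, 0.62 and 1.04 in WT livers. Of 76 mitochondrial ribosomal proteins, which serve a separate ribosome, none rose and 4 fell in KO livers on either scale, near the 4.49% of all genes that fell as deposited. In WT livers 13 rose and none fell as deposited, and 14 rose and 1 fell after quantile normalization. Of all genes 7.26% and 6.75% rose there. At day 2, 18 of them were lower in KO than in WT livers, where 5.23% of all genes were, and 15 were so after quantile normalization, where 3.86% were.

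Among 12 measured regulators of ribosomal protein genes and growth, Myc, a transcription factor that activates them, rose in both genotypes. It read 505.9, 570.0 and 668.7 in KO livers at day 2, against 72.2 and 131.5 at day 0, a rise of 2.38 ± 0.41 (adjusted p = 0.00344). In WT livers it read 514.5, 745.5 and 471.1 at day 2, against 100.4 and 302.8 at day 0, a rise of 1.59 ± 0.41 (adjusted p = 0.0239). The difference of these changes gave no call (0.79 ± 0.57, adjusted p = 0.451). Larp1 fell in KO livers by 0.57 ± 0.13 (adjusted p = 0.0161) and differed by -0.08 ± 0.13 in WT livers (adjusted p = 0.736). None of the others rose or fell in either genotype, and Eif4ebp1, an inhibitor of initiation that mTOR releases, was lower in KO than in WT livers at day 2 by 0.52 ± 0.13 as deposited (adjusted p = 0.0344), a call lost after quantile normalization (-0.47, adjusted p = 0.0581).

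The start sequences printed above were picked partly by the size of the WT change, so they cannot show whether runs go with it. The 15 genes with a pyrimidine run of at least 8 inside the window had a median WT change of 0.78, and the 21 without one had 0.74. Rpl41, with the largest change, had the shortest run of those printed, and Rps10, with a run of 13, had the smallest change of the bright genes on its chosen probe set. In the 300 bases from 250 before to 50 after the start, the letters CCGGAAG, which match sites of ETS factors, stood on either strand in 52.8% of the 36 genes, against 9.9% of all genes in the table. The letters AAGATGG, which match sites of YY1, stood in 16.7%, against 7.3%. Such matches are descriptions of the letters, and binding was not measured.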

How the data were processed

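RNA from whole liver was hybridised to Affymetrix mouse arrays. The intensity values are MAS5 signals, per the submitters' processing notes, deposited by the authors on a linear scale. Each array's mean, trimmed at the 2nd and the 98th percentile, is 500. No probe-level files were used, so background and probe effects are as deposited. The depth of an array is set by its probes, and the number of arrays limits the precision.

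Of 45101 probe sets, 34945 had 1 gene symbol in the platform annotation, 932 had several and 9160 had none, and 64 were controls. Log2(signal + 16) values were fitted with limma 3.58.1 (R 4.3.3) on 6 group means of all 12 arrays, with trend and robust settings and 6 residual degrees of freedom, and p-values were adjusted by Benjamini-Hochberg over 14102 genes. The fit was repeated after quantile normalization and was tested on simulated data. Named genes are a panel (Rplp0, Rplp2, Rpsa, Rpl11, Rps3, Rps6, Rps14, Rps19, Rps27l, Rpl22l1, Rpl7l1), the 10 largest called differences in each comparison or, with fewer than 5 calls, the 5 largest in each direction, the brightest genes, the dim ones, those whose probe sets disagree, and called genes of the related lists. The genes and all lists were chosen with earlier results of these data known. Counts over bright genes alone and the fit on shared probe sets were chosen after seeing the data. Same-numbered KO and WT arrays did not deviate together (correlations between -0.01 and 0.03 over genes), and the main fit used no pairing. With 2 arrays a group, the day 0 correlations can differ only in sign. Low values cannot show that same-numbered arrays were unpaired. Sequences and motif letters come from RefSeq tables of GRCm38.p6. The alternatives tried were other scalings, pseudocounts, filters, thresholds, probe set choices, the groups fitted, a replicate block and leaving out each array.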

Additional observations from a re-analysis of the deposited data

Results flagged for a closer look

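In 16 ribosomal protein genes the change between day 0 and day 2 differed between KO and WT livers by the interaction term of the limma fit on deposited signals (10 arrays and 2 pools, adjusted over 14102 genes). The difference of changes, KO minus WT, on the log2 scale was -1.297 for Rpl19, -1.27 for Rpl41, -1.239 for Rps19 and -1.09 for Rpl37a. It was -1.07 for Rpl13a, -0.968 for Rpl7a, -0.938 for Rplp2 and -0.93 for Rpl4. It was -0.914 for Rps27l, -0.911 for Rps26, -0.882 for Rpl27 and -0.864 for Rplp0. It was -0.858 for Rps4x, -0.851 for Rps18, -0.795 for Rps29 and -0.794 for Rps28. All 16 were negative, and 3 of them (Rpl19, Rpl37a and Rps19) were also called after quantile normalization. As deposited a negative difference of changes was called in 2.06% of all genes. Among the 768 other genes with a mean log2 signal of 12 or more it was called in 11.1%, and in 1.6% after quantile normalization.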

How the results depend on the processing

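After quantile normalization the calls among the 41 genes were 4 in KO livers between day 0 and day 2, 11 in KO against WT livers at day 2 and 3 for the difference of changes, with medians of 0.126 in KO livers, 0.527 in WT livers, -0.254 at day 2, 0.087 at day 0 and -0.336 for the difference of changes. With cyclic loess the calls were 3 in KO livers, 19 in WT livers, 11 at day 2 and 2 for the difference of changes, and the medians were 0.188, 0.446, -0.205, 0.07 (day 0) and -0.307. Centring arrays on their median gave medians of 0.838 in WT livers, -0.685 at day 2 and -0.86 for the difference of changes. Without limma's trend and robust settings there were 13 calls at day 2 and 1 for the difference of changes. At an adjusted p under 0.01 there were 10 and 2, and at one under 0.1 there were 2 calls in KO livers. Bright genes alone had a median difference of changes of -0.794. The main fit used no pairing of arrays, and a replicate block gave 10 calls for the difference of changes.

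Leaving out 1 array at a time gave 0 to 6 calls and medians of -0.124 to 0.118 in KO livers, and 15 to 24 calls and medians of 0.668 to 0.765 in WT livers. It gave 12 to 19 calls and medians of -0.573 to -0.487 at day 2, 0 to 1 call and medians of 0.013 to 0.328 at day 0, and 3 to 26 calls and medians of -0.897 to -0.641 for the difference of changes. A group left with 1 array is assumed to vary like the others.

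The 119 called values of named genes gave 2507 values under the alternatives, of which 639 were no longer past the threshold and 10 had the other sign. Eef1a1 turned to 0.056 in KO livers, 0.038 at day 2 and 0.04 for the difference of changes after quantile normalization. Cyclic loess turned Rps29 to 0.028 and Eef2 to 0.022 at day 2. Other probe sets gave -0.365 for Rpl35 and -1.47 for Rps20 in WT livers, 0.002 for Rpl27 at day 2 and 0.062 for the difference of changes of Rpl37a, and averaging the probe sets of Rps20 gave -0.007. The cause of these shifts was not tested. Low signal limits the precision of the 6 dim probe sets.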

Other observations

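Of the 5 genes whose own probe sets did not pass the filter, Rps4l exceeded the array's median on 1 array, at 341.4 on replicate 3 of WT day 2, and the other 4 did so on none. Rpl3l, a paralog of Rpl3 known from muscle, read 145.3 to 254.9 in KO livers at day 2, against 19.4 to 163.1 in WT livers at day 2. Rpl39l, a paralog of Rpl39 known from testis, read 6.9 to 13.2 in KO livers at day 2, against 9.1 to 46.5 in WT livers at day 2. Rps16's own probe set read 8.4 to 24.4 over the 12 arrays, while a set it shares with a pseudogene was among the bright ones.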
